A study of Mus musculus with 12 samples.

Results

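Open chromatin near 7 genes of the Hedgehog pathway was described across 6 populations of cells from mouse embryos at embryonic day 7.5. The genes were Shh, Ptch1, Smo, Gli1, Gli2, Gli3 and Hhip. Accessibility had been measured by ATAC-seq, an assay that reads out where a transposase can cut into exposed DNA. A peak belonged to a gene when its midpoint lay inside that gene, or when the gene was the nearest protein-coding gene within 100 kb. Peaks of the 6 lists that overlapped were joined into regions, and 87 of the 99096 regions of the series belonged to the 7 genes.

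All embryos were homozygous for a FoxA2 allele fused to the red fluorescent protein tagRFP, on a mixed C57Bl6/J x CD-1 background, and both sexes were mixed. FoxA2 is a forkhead transcription factor of endoderm, node and notochord. In FoxA2-WT-tagRFP embryos (WT) the protein was otherwise intact, and in FoxA2-deltaHx-tagRFP embryos (dHx) 10 amino acids of an alpha helix were missing. Cells of about 10 homozygous embryos were sorted by RFP into High (brighter than heterozygous cells), Middle (above the autofluorescence of untagged cells, up to the heterozygous maximum) and Negative. Each of the 6 groups had 2 samples of 2000 to 5000 cells per library, but was deposited as 1 pooled peak list. No value per sample was used, so no difference between lists was tested, and intervals given here cover counting error only. The gates sort by FoxA2 level and not by cell type. More cells of one type with an open region, and a wider opening per cell, cannot be told apart.

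Hedgehog signalling starts when a secreted ligand such as Sonic hedgehog (Shh) binds the receptor Patched1 (Ptch1). Ptch1 otherwise holds back the membrane protein Smoothened (Smo). Active Smo turns the Gli zinc finger factors into activators, with Gli2 the main activator, Gli3 mainly a repressor without ligand, and Gli1 an activator and itself a target. Ptch1 and Hhip, a decoy that binds the ligand, are also targets and limit the signal. In the embryo Shh is known as the ligand of the notochord, where FoxA2 is made, and the node is a source of notochord cells.

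The lists differed in length and in a fitted stand-in for depth, and this bears on every count below. They held 37129 (dHx High) to 50424 (dHx Negative) peaks. The mean background pileup fitted to the steps of the authors' scores stood in for depth, because the sources used here give no read totals. The fit takes the score as a p-value, so it is only a rough guide if the score is a q-value. The fitted mean was lowest in dHx High (0.476) and dHx Middle (0.786), then WT High (0.879) and WT Negative (1.08). It was highest in WT Middle (1.50) and dHx Negative (1.57). Among 6 node and notochord marker loci fixed for this check, 5 or 6 had a peak in every list, the Negative lists included. Among these loci, T (Brachyury) had none in WT High, dHx High and dHx Middle, and Chrd had none in WT Negative. Together the 6 loci had 29 peaks in WT High, 33 in WT Middle and 23 in WT Negative. In dHx they had 29 (High), 33 (Middle) and 27 (Negative). Of 4 visceral endoderm loci 1 had a peak in WT Negative and 3 or 4 in the other lists. Of 3 blood loci, Gata1 and Tal1 had a peak in WT High, 1 locus did in each other list except dHx High, which had none, and Hbb-bh1 had none in any list. The 4 definitive endoderm loci had a peak in all 6 lists, with 16 to 26 peaks together, and 2 to 4 of 4 mesoderm loci did. Of 4 neuroectoderm and epiblast loci, 4 had a peak in both Negative lists and 2 or 3 in the RFP-positive lists. Of 3 trophoblast loci, 2 or 3 had a peak in every list, with 6 (both High lists and dHx Middle) to 18 peaks (dHx Negative). A peak near such a locus does not show that the cell type was present. Because the gates sort by FoxA2 level, the peaks below cannot be assigned to notochord cells alone, and the part of other cell types in them was not tested.

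The genes differed in whether a window around the transcription start overlapped a peak. RefSeq (GRCm38.p6, the assembly that mm10 names) gave a promoter window of 300 bases, from 250 before to 50 after the start, for 5 of the 7 genes, all but Shh and Gli1. The windows of Smo and Gli3 overlapped a peak in all 6 lists. That of Gli2 did so in 5 lists, all but dHx Middle, and that of Hhip in 5, all but WT Middle. The window of Ptch1 overlapped none, but its edge lay 42 bases from the region 63566027 to 63566606, which was open in all 6 lists, so this depends on where the window ends. Over all 32619 windows on the chromosomes of the lists, between 34.5% (WT Middle) and 39.2% (dHx High) overlapped a peak.

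The 250 bases before the start are printed for the gene without a peak and for the 2 genes without one in a single list. Capitals mark bases that lie under a WT High peak, and all 3 are minus-strand genes, at chr13:63565736-63565985 (Ptch1), chr1:119053620-119053869 (Gli2) and chr8:80058009-80058258 (Hhip).
Ptch1: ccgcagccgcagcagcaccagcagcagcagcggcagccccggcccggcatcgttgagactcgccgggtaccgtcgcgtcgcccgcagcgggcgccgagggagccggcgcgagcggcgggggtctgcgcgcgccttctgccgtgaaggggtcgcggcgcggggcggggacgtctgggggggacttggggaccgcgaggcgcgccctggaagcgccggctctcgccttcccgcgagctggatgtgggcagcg
Gli2: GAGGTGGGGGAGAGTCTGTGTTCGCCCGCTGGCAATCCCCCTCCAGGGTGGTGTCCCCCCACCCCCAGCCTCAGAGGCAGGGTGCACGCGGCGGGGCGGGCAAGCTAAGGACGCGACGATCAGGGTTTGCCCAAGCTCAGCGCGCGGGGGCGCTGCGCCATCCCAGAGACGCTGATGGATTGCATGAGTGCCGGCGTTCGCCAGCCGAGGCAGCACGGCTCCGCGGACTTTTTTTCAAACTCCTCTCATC
Hhip: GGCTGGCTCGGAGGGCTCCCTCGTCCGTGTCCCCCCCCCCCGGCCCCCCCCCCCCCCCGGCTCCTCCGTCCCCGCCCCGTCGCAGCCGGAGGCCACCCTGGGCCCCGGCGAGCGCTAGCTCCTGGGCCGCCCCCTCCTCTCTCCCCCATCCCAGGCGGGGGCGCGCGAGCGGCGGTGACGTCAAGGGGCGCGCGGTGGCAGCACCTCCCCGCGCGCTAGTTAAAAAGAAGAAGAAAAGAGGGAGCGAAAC

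The Ptch1 stretch held 78.4% G and C and no base under a peak in any list. The Hhip stretch, at 76.0%, was covered whole in WT High, WT Negative and dHx Negative, over 102 bases in dHx Middle, and over 0 bases in dHx High, whose peak lay past the start. The Gli2 stretch, at 67.2%, was covered whole in every list except dHx Middle. Each 300-base window was searched on both strands for exact motifs. These were the GLI motif GACCACCCA and its contained short form CCACCCA, the forkhead motifs TGTTTAC, with its variants TGTTTGC at one base and TATTTAC at another, and the T-box motif TCACACCT. None of the 5 windows held any of them. Among all 32851 windows, GACCACCCA was present in 0.253%, CCACCCA in 9.30%, TGTTTAC in 3.65%, TGTTTGC in 5.07%, TATTTAC in 3.04% and TCACACCT in 1.28%. These letters are simply not in these windows, which says nothing of sites elsewhere.

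Of the peaks of all 7 genes together, WT High held 47, WT Middle 36 and WT Negative 35, and dHx High held 49, dHx Middle 36 and dHx Negative 55. Shh, Gli3 and Hhip had their highest counts in a High list, and Ptch1, Smo, Gli1 and Gli2 in a Negative list. When every list was reduced to its 37129 strongest peaks, the totals became 38, 28, 33, 49, 35 and 40 in the same order. The highest total then stood in dHx High and not in dHx Negative. At that length Ptch1 tied at 9 in dHx High and dHx Negative, and Hhip at 5 in WT Middle and dHx High. Gli1 tied at 3 in WT Negative, dHx High and dHx Middle. For the other genes the highest count stayed in a list of the same RFP level.

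**Figure D1:**
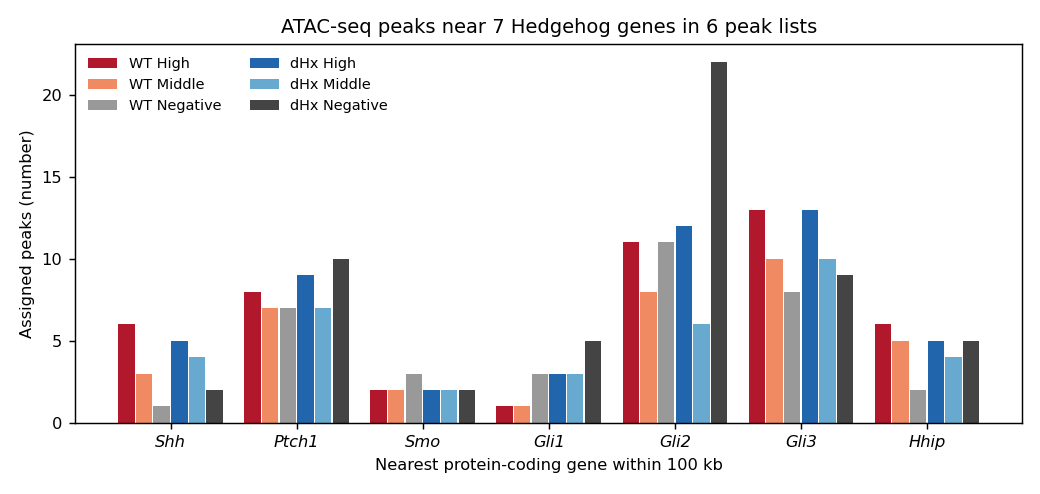
Number of peaks assigned to each of the 7 Hedgehog genes (x axis) in each of the 6 peak lists (bars, coloured by list); each bar is 1 pooled list, so there are no error bars. Shh has 6 peaks in WT High and 1 in WT Negative, and Gli2 has 22 in dHx Negative against 11 in WT Negative.

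Shh, the ligand (mm10, chromosome 5, 28456840 to 28467101), had 8 regions. Of its peaks, WT High held 6, WT Middle 3 and WT Negative 1, and dHx High held 5, dHx Middle 4 and dHx Negative 2. In both genotypes the RFP-positive lists thus held more Shh peaks than the Negative list. No list held a peak within 1 kb of either end of the gene.

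The strongest Shh region, 28563067 to 28563966, lay 96.4 kb above the gene's upper end and was present in all 4 RFP-positive lists but not in the Negative ones. The authors' score, taken to be a −log10 p-value (or q-value), can be ranked only within a list, so each peak is also given by its percentile among the scores of its own list. The region scored 9.29 in WT High (percentile 65.6), 22.1 in WT Middle (85.3), 26.6 in dHx High (89.2) and 9.86 in dHx Middle (64.8). Both Negative lists had a higher fitted background than WT High, dHx High and dHx Middle. Whether depth bears on the missing peaks was not tested. This region is also the one nearest to the 100-kb limit: the first peaks past it were a WT High peak 119.3 kb from Gli2 (percentile 30.2) and a dHx Negative peak 119.5 kb from Hhip (14.9).

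Inside Shh, the region 28458857 to 28459917 had the same distribution over lists. It scored 3.05 in WT High (percentile 18.0), 6.52 in WT Middle (48.3), 9.88 in dHx High (62.3) and 4.31 in dHx Middle (28.7). A neighbouring region inside the gene, 28459931 to 28460341, had a peak in WT High (18.0) and dHx Negative (35.2). Together these put an open site in the same part of the gene in every list except WT Negative.

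Of the other 5 Shh regions none was in more than 4 lists. The region 28447044 to 28447630, 9.50 kb below the gene, was in WT High, WT Middle (percentile 72.0), dHx Middle and dHx Negative (59.5). That at 28469457 to 28470235, 2.75 kb above it, was in both High lists and, at percentile 5.47, in WT Negative. The region 28500735 to 28501466 was in dHx High and dHx Middle, 28450734 to 28451158 in dHx High alone and 28462049 to 28462281 in WT High alone. Of the 6 WT High peaks of Shh, 5 had the score 3.05, near the floor of that list. With all lists at the length of the shortest, WT High kept 1 Shh peak, WT Middle and dHx Middle 3 each, dHx High 5, WT Negative 0 and dHx Negative 2.

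By peak counts divided by list size over the 6 lists, the 3 genes most like Shh among 5958 others with at least 5 regions were Fxr1 (Pearson 0.99), Pias1 (0.98) and Kalrn (0.98). Pias1 had 5, 3, 1, 5, 4 and 2 peaks in the order of the lists above. Gli3 (0.91) and Hhip (0.87) were closer to Shh than Ptch1 (0.41) and Gli2 (-0.25). These correlations describe 6 lists that differ in length and fitted background, and they carry no test.

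**Figure D2:**
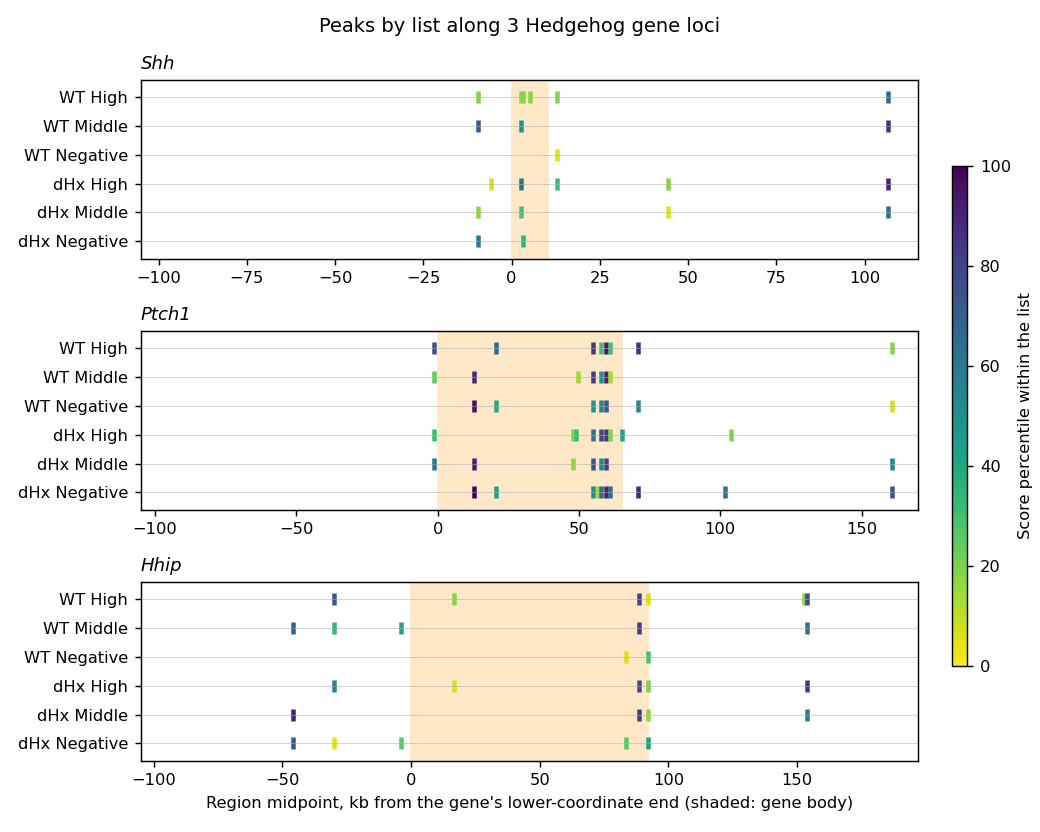
Peaks along the Shh, Ptch1 and Hhip loci; the x axis is the midpoint of each region in kb from the gene's lower-coordinate end, the y axis the 6 lists, the shading the gene body, and colour the percentile of the peak's score within its list. The Shh region 106.7 kb from the lower end and the Hhip regions at 88.5 and 153.7 kb have marks in the 4 RFP-positive rows and none in the 2 Negative rows.

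Hhip, the ligand-binding antagonist (chromosome 8, 79965850 to 80058060), had 9 regions. Of its peaks, WT High held 6, WT Middle 5 and WT Negative 2, and dHx High held 5, dHx Middle 4 and dHx Negative 5. At equal list length WT High had 3, WT Middle 5 and WT Negative 1, and dHx High had 5, dHx Middle 4 and dHx Negative 2. The region 80054087 to 80054603 lay inside the gene, 3.66 kb downstream of the transcription start. It was present in the 4 RFP-positive lists at similar ranks: 14.2 in WT High (percentile 78.3), 18.4 in WT Middle (81.5), 15.6 in dHx High (77.2) and 16.3 in dHx Middle (80.7). Neither Negative list had a peak there.

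A further Hhip region, 80119313 to 80119816, lay 61.6 kb upstream of the start and had the same presence. Its scores were 14.2 in WT High (percentile 78.3), 9.46 in WT Middle (62.6), 20.1 in dHx High (83.8) and 8.67 in dHx Middle (59.9). By contrast, the region over the start of Hhip, 80057336 to 80058630, held peaks of low rank in 5 lists. They ran from percentile 6.00 in WT High to 43.0 in dHx Negative, and WT Middle had none. The start was thus covered in both Negative lists, where the 2 regions described before it had no peak.

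The region 79919364 to 79920887, 45.7 kb below Hhip, was in both Middle lists (percentile 69.3 in WT, 91.1 in dHx) and in dHx Negative (72.5), and in neither High list. The region 79935838 to 79936209 was in WT High (72.9), WT Middle, dHx High (56.8) and, at 4.74, dHx Negative. The region 79982273 to 79982733 was in both High lists alone and 80049215 to 80049693 in both Negative lists alone, each at percentile 25.7 or lower. Of the last 2, 79961899 to 79962375 was in WT Middle and dHx Negative, and 80118327 to 80118674 in WT High alone.

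Ptch1, the receptor (chromosome 13, 63508328 to 63573460), had 16 regions, and its counts varied little between lists. Of its peaks, WT High held 8, WT Middle 7 and WT Negative 7, and dHx High held 9, dHx Middle 7 and dHx Negative 10. The start in the RefSeq window, 63565735, lay inside these gene coordinates and not at their upper end. Around it stood 3 regions, all inside the gene, that were open in all 6 lists, and upstream is counted here from that start. They were 63567596 to 63568446, 2.29 kb upstream, with percentiles from 72.9 (WT Negative) to 92.9 (WT High), 63566027 to 63566606, 0.58 kb upstream (30.2 in WT High to 79.7 in dHx High), and 63563061 to 63563811, 2.30 kb downstream (47.9 in WT Negative to 84.2 in WT High).

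At the far end of Ptch1 the region 63506267 to 63507669, 1.36 kb outside the gene, was in the 4 RFP-positive lists but not in the Negative ones. Its scores were 12.9 in WT High (percentile 75.9), 3.89 in WT Middle (24.4), 4.83 in dHx High (31.5) and 8.67 in dHx Middle (59.9). An intragenic region showed another distribution. This was 63520791 to 63521539, with 43.3 in WT Negative (96.4), 153 in dHx Negative (99.5), 27.2 in WT Middle (88.9) and 27.7 in dHx Middle (91.1). Neither High list had a peak there, although it held the highest-scoring Ptch1 peak of both Negative lists and of dHx Middle.

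Among the regions of Ptch1 in fewer lists, 63578885 to 63579488, 5.73 kb above the gene, was in WT High (20.8, percentile 87.0), WT Negative (54.8) and dHx Negative (88.9). It was the highest-scoring of the 13 Hedgehog regions in WT High and not in dHx High. The region 63528332 to 63529387 was in WT High (65.6) and both Negative lists. The region 63668700 to 63669593, 95.7 kb above the gene, was in WT High, WT Negative, dHx Middle (54.2) and dHx Negative (75.0), and 63569080 to 63569591 in both High lists, WT Middle and dHx Negative. Of the other 7, 6 were in 1 list and 63555938 to 63556558 in dHx High and dHx Middle. Among the 6 was 63573394 to 63573943, over the gene's upper end, in dHx High alone (percentile 42.2).

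Smo, the signal transducer (chromosome 6, 29735497 to 29761366), was the most even of the genes. It had 2 peaks in every list except WT Negative, which had 3. The region 29735306 to 29736439 covered the start and ranked between percentile 58.6 (WT Middle) and 85.5 (dHx Negative). The region 29747682 to 29749289, 13.0 kb downstream and inside the gene, had the highest scores of all 87 regions. It scored 468 in WT High, 1143 in WT Middle and 779 in WT Negative, and in dHx it scored 186 (High), 330 (Middle) and 577 (Negative), at percentile 99.8 or higher in each list. The third, 29762666 to 29762904, was in WT Negative alone (17.0).

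The Gli factors differed from one another. Gli1 (chromosome 10, 127329882 to 127341579), an activator induced by the pathway, had 4 regions. Of its peaks, WT High held 1, WT Middle 1 and WT Negative 3, and dHx High held 3, dHx Middle 3 and dHx Negative 5. Its main region, 127338758 to 127340928 inside the gene, was in all lists except WT Middle. It joined 10 peaks over 5 lists, and the highest-scoring peak of a list gives its rank. That rank was highest in dHx Negative (percentile 75.0, 127338958 to 127339425) and WT Negative (72.9, 127340353 to 127340912), in peaks that do not overlap. It was lowest in WT High (30.2), whose peak, 127338955 to 127340014, did not overlap the higher WT Negative peak. The WT Negative peak that it did overlap, 127338758 to 127339920, ranked at percentile 69.3. The region 127342240 to 127342722, 0.90 kb above the gene, was in both Negative lists and WT Middle, 127332030 to 127332650 in dHx Middle and dHx Negative, and 127341462 to 127341976 in dHx High alone. The High list held fewer Gli1 peaks than the Negative list in both genotypes, but at equal list length dHx High had 3 and dHx Negative 2, with 1 in WT High and 3 in WT Negative. The coordinates of Arhgap9 meet or overlap those of Gli1, and 9 other protein-coding genes, Arhgap9 included, lie within 100 kb. Assignment by nearest gene is thus least certain here.

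Gli2, the main activator (chromosome 1, 118834061 to 119054405), had 30 regions, the most of the 7 genes, and 13 of them were in a single list. Of its peaks, WT High held 11, WT Middle 8 and WT Negative 11, and dHx High held 12, dHx Middle 6 and dHx Negative 22. At equal list length dHx Negative kept 15 Gli2 peaks, against 11 in WT Negative and 12 in dHx High. Of the 13 Gli2 regions in 1 list, 8 were in dHx Negative, 3 in dHx High and 2 in dHx Middle.

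Near the upper end of Gli2, which holds the start, 3 intragenic regions were in both Negative lists and in no RFP-positive list. They were 119047747 to 119048199, 119049777 to 119050283 and 119051875 to 119052355, and they ranked between percentile 4.74 and 54.8. The next region, 119052417 to 119054422, covered the start, was in all lists but dHx Middle and ranked highest in WT Negative (20.2, percentile 87.1). Outside the gene, 119083582 to 119083911, 29.3 kb above it, was also in the Negative lists alone, as was 119001658 to 119002118 inside it (at percentile 5.47 or lower). With all lists at equal length, 3 of these 5 Gli2 regions kept the pattern.

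Of the Gli2 regions outside the gene, 119117794 to 119119305, 64.1 kb above it, stood out by score in WT. It had 12.9 in WT High (percentile 75.9), 27.2 in WT Middle (88.9), 64.3 in WT Negative (98.4) and 5.33 in dHx Middle (39.1), and no peak in dHx High or dHx Negative. This was the highest-scoring of the 4 Hedgehog regions in WT Negative and not in dHx Negative. The 2 highest fitted backgrounds were those of dHx Negative and WT Middle, and a part of depth in this pattern was not tested. The adjacent region 119119827 to 119120276 was in every list but WT Negative.

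The region 118776551 to 118777102, 57.2 kb below the gene, ranked at percentile 88.3 in WT Negative and 84.4 in dHx Negative against 18.0 in WT High, and was in no other list. The region 118878040 to 118878643 inside the gene was in 5 lists and ranked highest in dHx High (26.6, percentile 89.2). The region 118913502 to 118914384 was in both High lists alone (60.9 in WT, 56.8 in dHx), and 119008856 to 119009264 in both High lists and WT Middle. The region 119003754 to 119005144 was in all lists but dHx Middle, with its highest rank in dHx Negative (80.5). The highest-scoring region in dHx Middle and not WT Middle was of Gli2 (119000310 to 119000630, 13.6) and was in no other list. In dHx High and not WT High, the Gli2 region 118767120 to 118767495 tied at 9.88 with the Gli3 region 15487105 to 15487782.

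Gli3, the repressor (chromosome 13, 15463723 to 15730026), had 17 regions. Of its peaks, WT High held 13, WT Middle 10 and WT Negative 8, and dHx High held 13, dHx Middle 10 and dHx Negative 9. The order High, Middle, Negative in WT and dHx was thus the same. The Middle list of WT had a higher fitted background than both other WT lists. At equal length the WT counts were 12, 6 and 8 and the dHx counts 13, 10 and 8, so this order held in dHx and not in WT.

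The leading Gli3 region was 15602447 to 15603488, inside the gene and 139 kb downstream of the start. It scored 79.7 in WT High (percentile 98.9), 82.7 in WT Middle (98.4), 70.6 in dHx High (98.3) and 62.4 in dHx Middle (98.1). In WT Negative it scored 15.1 (80.7) and in dHx Negative 16.8 (80.5). It was thus open in all 6 lists, and within each RFP-positive list it stood nearer the top than within either Negative list.

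The other 4 Gli3 regions in all 6 lists ranked below the leading one in each RFP-positive list. The region 15462629 to 15464890, over the start, ranked from percentile 39.1 (dHx Middle) to 88.9 (dHx Negative), and 15395209 to 15395630, 68.3 kb below the gene, from 71.0 (dHx High) to 91.0 (WT Negative). The latter region stood higher in both Negative lists (91.0 and 90.8) than in any RFP-positive list (82.5 at most). The regions 15504527 to 15505249 and 15570823 to 15571556, both inside the gene, ranked from 42.2 to 82.5 and from 39.1 to 65.3. No Gli3 region was confined to the Negative lists. In both High lists and neither Negative list were 15537410 to 15537845, 15556507 to 15556972 and 15624433 to 15625018, all inside the gene and at percentile 50.3 or lower. The region 15707384 to 15707831 was in the 4 RFP-positive lists and also, at percentile 14.9, in dHx Negative. Of the remaining 8 regions 3 were in 1 list, 3 in 3 lists and 2 in 4 lists.

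**Figure D3:**
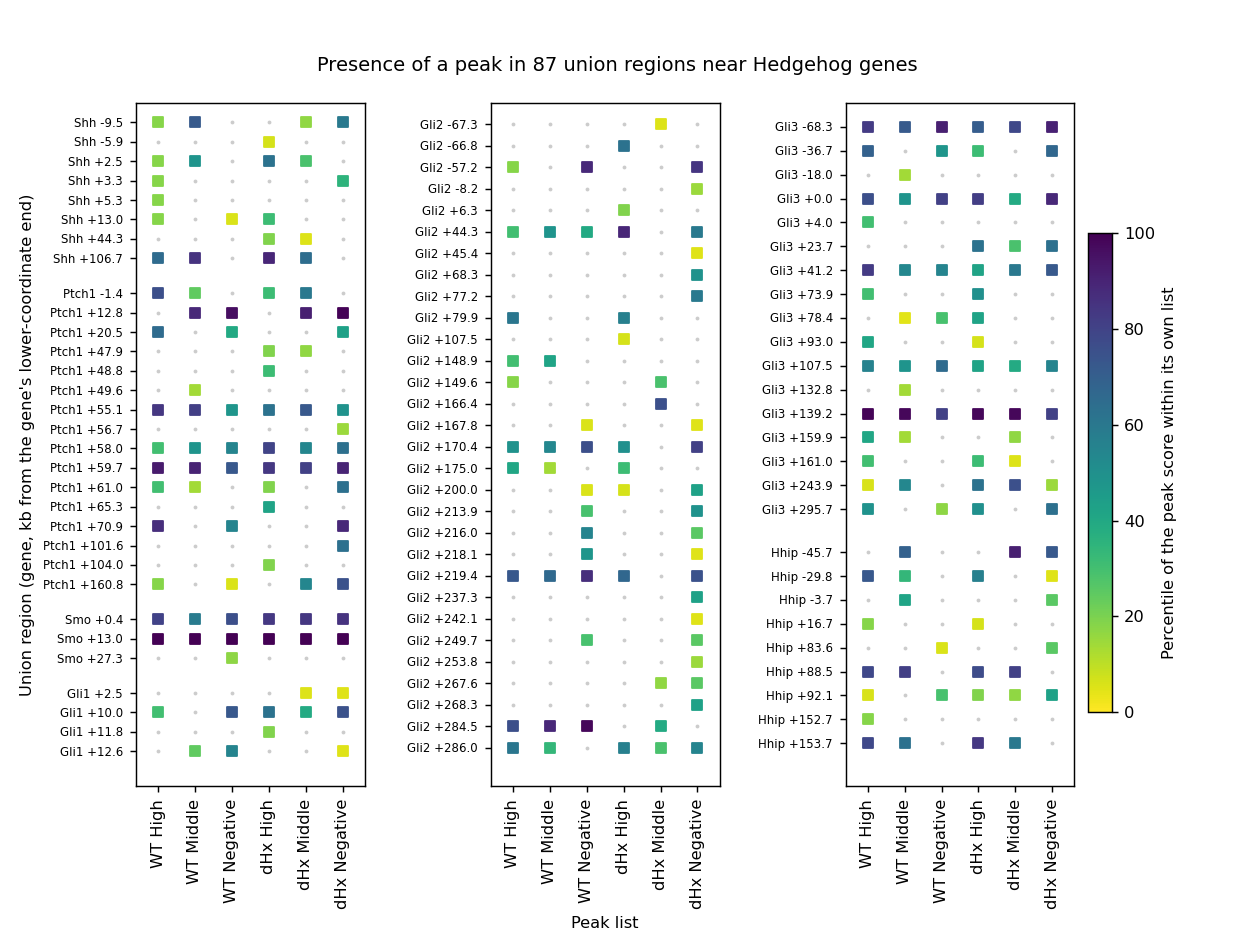
All 87 regions near the 7 Hedgehog genes (rows, labelled by gene and by the kb of the midpoint from the gene's lower-coordinate end) against the 6 lists (columns). A square marks a peak, coloured by the percentile of its score within its own list, and a grey dot marks no peak; Smo at 13.0 kb is at percentile 99.8 or higher in every list, and Gli3 at 139.2 kb between 98.1 and 98.9 in the 4 RFP-positive lists.

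Over the 87 regions, 10 were in all 6 lists (11.5%, 95% Clopper-Pearson interval 5.65 to 20.1), as were 14.8% of the 87313 regions near any protein-coding gene. They belonged to Gli3 (5), Ptch1 (3) and Smo (2). In a single list were 27 (31.0%), against 43.9% of all regions. Their median percentile was 18.0, and the highest was 75.7. By list, 3 were in WT High alone (3.45%, against 7.67% of all regions), 3 in WT Middle alone (against 9.40%) and 1 in WT Negative alone (1.15%, against 5.84%). In dHx, 8 were in High alone (9.20%, against 5.35%), 2 in Middle alone (2.30%, against 4.70%) and 10 in Negative alone (11.5%, against 11.0%). Between these extremes, 7 regions were in 5 lists (8.05%, against 6.26%), 13 in 4 lists (14.9%, against 8.13%), 12 in 3 lists (13.8%, against 10.0%) and 18 in 2 lists (20.7%, against 16.9%).

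The pattern of all 4 RFP-positive lists and neither Negative list held for the 5 regions already described, 2 of Shh, 2 of Hhip and 1 of Ptch1. They made up 5.75% (1.89 to 12.9) of the 87, where the share of all regions was 2.04%. At equal list length 4 of the 5 had the pattern, all but the intragenic Shh region, which lost its WT High peak. The opposite pattern, both Negative lists and no RFP-positive list, held for 6 regions, 5 of Gli2 and 1 of Hhip (6.90%, 2.57 to 14.4, against 2.72%). In both High lists and neither Negative list were 11 regions (12.6%, 6.48 to 21.5, against 5.35%), of Shh (2), Ptch1 (1), Gli2 (2), Gli3 (3) and Hhip (3). Taken more loosely, 32 regions had a peak in some RFP-positive list and no Negative list (36.8%, against 39.3%), and 17 in some Negative list and no RFP-positive list (19.5%, against 19.5%), 13 of them of Gli2. These looser shares were close to those of all regions.

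In WT cells, High was set against Negative to find sites open where FoxA2 was abundant and closed where it was not detected. Of the 47 WT High peaks, 24 had no WT Negative peak (51.1%, 36.1 to 65.9), close to the 47.4% of all WT High peaks near genes. By gene they were 5 of 6 for Shh, 5 of 6 for Hhip, 6 of 13 for Gli3, 6 of 11 for Gli2, 2 of 8 for Ptch1, 0 of 2 for Smo and 0 of 1 for Gli1. In the other direction 12 of 35 (34.3%, 19.1 to 52.2) were WT Negative alone, beside 39.7% of all, and 6 of these were of Gli2.

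In dHx cells, 23 of 49 High peaks lacked a Negative peak (46.9%, 32.5 to 61.7, against 37.7%), and 29 of 55 Negative peaks lacked a High peak (52.7%, 38.8 to 66.3, against 52.3%). The first group held 5 of 5 Shh peaks, 5 of 9 of Ptch1, 5 of 12 of Gli2, 4 of 13 of Gli3, 3 of 5 of Hhip, 1 of 3 of Gli1 and 0 of 2 of Smo. All 4 intervals of High against Negative, in WT and dHx, contained the share of all peaks. Gli2 held 15 of the 29 dHx Negative peaks without a High peak, and Gli3 none.

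The helix deletion was compared at each RFP level. In High cells, 13 of 47 WT peaks had no dHx peak (27.7%, 15.6 to 42.6, against 40.9% of all), and 14 of 49 dHx peaks had no WT peak (28.6%, 16.6 to 43.3, against 30.0%). Missing from dHx High were 4 of 11 WT peaks of Gli2, 3 of 6 of Shh, 3 of 8 of Ptch1, 2 of 13 of Gli3, 1 of 6 of Hhip and none of Smo or Gli1. For Shh these were the weak peaks at 28447044, 28459931 and 28462049. Without a WT High peak were 4 of 9 dHx High peaks of Ptch1, 4 of 12 of Gli2, 2 of 3 of Gli1 and 2 of 5 of Shh. The same held for 2 of 13 of Gli3 and for none of the 5 of Hhip or the 2 of Smo.

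In Middle cells, 14 of 36 peaks were found only in WT (38.9%, 23.1 to 56.5, against 42.4%) and 14 of 36 only in dHx (38.9%, against 30.1%). Only in WT were 6 of 8 peaks of Gli2, 3 of 10 of Gli3, 2 of 7 of Ptch1 and 2 of 5 of Hhip. The 1 WT Middle peak of Gli1 lacked a dHx peak, but none of the 3 of Shh or the 2 of Smo did. Only in dHx were 4 of 6 of Gli2, 3 of 3 of Gli1, 3 of 10 of Gli3 and 2 of 7 of Ptch1. So were 1 of 4 of Shh, 1 of 4 of Hhip and 0 of 2 of Smo. In Negative cells, 4 of 35 were found only in WT (11.4%, 3.20 to 26.7, against 27.8%) and 23 of 55 only in dHx (41.8%, 28.7 to 55.9, against 43.3%). The highest-scoring of the latter was the Hhip region 79919364 to 79920887, and 12 of the 23 were of Gli2. At each level the interval of the Hedgehog share contained the share of all peaks, except in WT Negative against dHx Negative, where it lay just below it. The dHx Negative list was the longer of the pair and had the higher fitted background. That exception rests on 4 peaks: the share was 20.0% (7 of 35) when an overlap of at least 50% of the shorter peak was required and 18.2% (6 of 33) at equal list length.

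**Figure D4:**
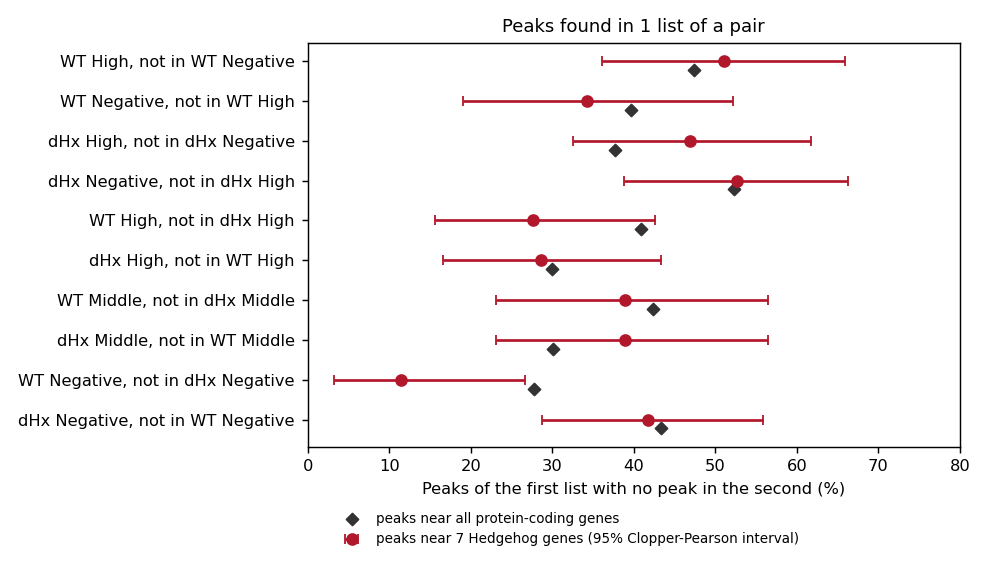
Share (x axis, in percent) of the peaks of a first list that have no overlapping peak in a second list, for 10 ordered pairs of lists (y axis). Red points and bars are peaks near the 7 Hedgehog genes with 95% Clopper-Pearson intervals, and dark diamonds are peaks near all protein-coding genes; the diamond lies outside the bar in 1 pair, WT Negative against dHx Negative (11.4% against 27.8%).

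Across levels, 13 regions were in WT High and WT Middle and not WT Negative (14.9%, against 7.57% of all regions). Of these, 10 were shared with dHx High, 9 with dHx Middle and 5 with dHx Negative, and 1 had one in neither dHx High nor dHx Middle. Conversely, 8 regions were in dHx High and dHx Middle and not dHx Negative (9.20%, against 5.03%), and 2 of them had no peak in WT High or WT Middle. How many of all regions with these 2 patterns had a peak in the other genotype was not computed, so these overlaps have no reference. Regions in WT lists alone numbered 8 (9.20%, against 25.8%), with no percentile above 41.6, and 7 of them were in a single list. Regions in dHx lists alone numbered 25 (28.7%, against 23.5%), 14 of them of Gli2 and 20 in a single list.

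The wider pathway was described from a list of 38 genes, all matched by symbol. In WT High against WT Negative, 35 had a peak, with High-only peaks in excess at 13, Negative-only peaks in excess at 12 and a tie at 10. Over all genes with a peak, 39.0% had more High-only and 24.8% more Negative-only peaks. On the High side were the ligand co-receptors Boc (6 High-only of 9 against 2 Negative-only of 5) and Cdon (4 of 8 against 0 of 4) and the forkhead targets Foxa1 (5 of 6 against 0 of 1) and Foxa2 (7 of 16 against 2 of 11). On the Negative side were the co-receptor Gas1 (2 of 5 against 4 of 7), the Gli inhibitor Sufu (2 of 5 against 4 of 7) and the target Ccnd2, a cyclin (0 of 2 against 3 of 5). Disp1, which releases the ligand from cells, had 5 of 7 against 4 of 6.

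In dHx High against dHx Negative, 36 had a peak, 8 with more High-only and 17 with more Negative-only peaks (23.3% and 40.0% of all genes). Foxa2 had 8 High-only of 16 against 7 of 15, Foxa1 6 of 8 against 0 of 2, and Disp1 7 of 10 against 4 of 7. Gas1 had 0 of 2 against 6 of 8, Nkx2-2, a homeobox factor of the ventral neural tube, 3 of 4 against 7 of 8, and Mycn 3 of 3 against 6 of 6. In WT High against dHx High, 34 had a peak, 16 with more WT-only and 8 with more dHx-only peaks (37.2% and 21.1% of all genes). Of the co-receptors, Boc had 4 of 9 WT-only against 1 of 6 dHx-only, Cdon 3 of 8 against 0 of 5 and Gas1 3 of 5 against 0 of 2. Disp1 had 3 of 7 against 6 of 10, and Ihh, another ligand, had 2 peaks in dHx High and none in WT High.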

How the data were processed

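ATAC-seq peak lists of 12 samples in 6 groups were used, 1 list per group on mm10. The submitters' processing notes name STAR (version 2.5.2a) and MACS2, without their roles or settings. The peak names of the deposited files hold the word Pooled, so a list was taken as the pool of 2 samples. The deposited score was taken to be a −log10 p-value (or q-value) that the authors' caller wrote, judged by its values, because the column is unnamed.

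Rows with the same start and end were merged, with the highest score kept. Each midpoint was assigned to the nearest of 21627 protein-coding genes (RefSeq, GRCm38.p6) within 100 kb. Exon positions were not used here. Peaks overlapping by at least 1 bp were shared, or joined into a region, and shares carry Clopper-Pearson 95% intervals (scipy 1.17.1). The background pileup is the mean of a Poisson distribution fitted to the 40 lowest score steps. The fit was checked on simulated p-values only, and overlap and assignment on made-up intervals.

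Alternatives were a stricter overlap, lists of equal length, the strongest 20000 peaks, a 50-kb limit and assignment to every gene within 100 kb. Regions named in full were those over the start, in all 6 lists, in the RFP-positive, High or Negative lists alone, and the highest-scoring in 1 genotype at each level. Further ones were chosen after their values were seen, as were the pathway genes given from among ties. Members and lists were chosen with earlier results of these data known.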

Additional observations from a re-analysis of the deposited data

How the results depend on the processing

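No paired analysis was possible because each group was deposited as 1 pooled list, and for the same reason no replicate could be left out. Of 82 values recomputed, 68 stayed within their 95% interval or, for counts, within 1.5 times. With the strongest 20000 peaks of the first list, all 10 shares were lower, 8 of them below their interval. The WT High peaks without a WT Negative peak made up 33.3% and without a dHx High peak 14.3%. The dHx High peaks without a dHx Negative peak made up 29.2% and without a WT High peak 8.33%. The share was 29.2% for dHx Negative against dHx High, 20.8% for dHx Negative against WT Negative, 7.69% for WT Middle against dHx Middle and 11.8% for the reverse. This setting leaves out the weakest peaks by construction, and the share of all peaks was not recomputed at it. Counting peaks for every gene within 100 kb gave 60 in WT Middle and 55 in WT Negative. With a 50-kb limit, 3 regions were in the 4 RFP-positive lists and neither Negative list, since 2 of the 5 lie farther away. With lists of equal length, 3 regions were in both Negative lists alone. In settings added after seeing the data, 13 regions had the RFP-positive pattern when only the WT lists were read and 8 when only the dHx lists were. Peaks in the other genotype were not considered in these settings, so these are not regions found in 1 genotype only.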

Other observations

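Many peaks lay within 100 kb of a Hedgehog gene but nearer to another gene, and this was uneven among the 7 genes. Over the 6 lists, 58 of the 74 peaks within 100 kb of Gli1 and 46 of the 59 within 100 kb of Smo were nearer to another protein-coding gene. For Ptch1 these were 9 of 57, for Shh 2 of 23 and for Gli2 1 of 71, and for Gli3 and Hhip there were none. The gap to the next protein-coding gene was 0.00 kb for Gli1 (Arhgap9), 7.01 kb for Smo (Ahcyl2), 11.0 kb for Ptch1 (Fancc), 37.6 kb for Shh (Rbm33), 149 kb for Gli2 (Tfcp2l1), 189 kb for Hhip (Anapc10) and 274 kb for Gli3 (Inhba). Within 100 kb of Gli1 stood 9 peaks in WT High and 16 in WT Negative, and 10 in dHx High and 16 in dHx Negative. Around Smo there were 11 and 9 in WT and 9 and 9 in dHx.

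Ptch1 and Hhip each had a region with peaks in Middle and Negative lists and in neither High list. The Ptch1 region 63520791 to 63521539 was in both Middle and both Negative lists. The Hhip region 79919364 to 79920887 was in both Middle lists and dHx Negative, but not in WT Negative. These were picked after their values were seen, and the share of all regions with this pattern was not computed. In each genotype the High list had the lowest fitted background.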
